A study of Mus musculus with 4 samples.

Results

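The table of gene expression listed 60 mouse zinc finger genes with symbols from Zfp900 to Zfp999, called Zfp900-series genes here, among 24873 genes. They were taken by symbol alone, as every listed gene whose symbol is Zfp followed by a number of that range, so no measured value entered the choice. The RNA came from CD31+CD45- cells of the mouse cerebrum, isolated on day 9 and sequenced in 2 control and 2 tamoxifen libraries, each made from cells pooled from 3 mice. All mice of both groups were Cdh5cre;Mgpflox/flox, in which the VE-cadherin (Cdh5) promoter drives a tamoxifen-activated Cre recombinase in endothelium and Mgp carries recombinase sites. Tamoxifen was injected at 75 mg/kg on each of 5 days, starting at an age of 10 weeks, and controls were left without it, so an effect of the drug itself and an effect of the intended deletion cannot be told apart. Libraries are called control and tamoxifen by their labels. The sample labels describe the cells by a tdTomato reporter, whereas the study's methods give the CD31 and CD45 sort.

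Most genes of this kind encode KRAB zinc finger proteins. A row of C2H2 zinc fingers reads a DNA sequence, and the KRAB domain at the other end recruits TRIM28 (KAP1), which brings the histone methyltransferase SETDB1 and HP1 proteins and lays down repressive H3K9me3. These proteins are known for silencing retroelements in embryonic stem cells and early embryos, and their genes lie in clusters that have expanded separately in each mammalian lineage. In the canonical transcripts of GENCODE M39, 59 of the 60 genes are protein coding and Zfp996 is a transcribed processed pseudogene. Among the 54 with a coding part of at least 200 residues, 52 held a KRAB pattern, and the number of C2H2 fingers ran from 3 to 21 with a median of 11. Zfp956 and Zfp974 were the exceptions without the pattern. The genes lie on 12 chromosomes of GRCm39. The largest group is on chromosome 4, where 16 genes lie between 145237287 and 147932882. On chromosome 17, 10 of 13 lie between 21787117 and 23086292.

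The promoter sequences below show that some related Zfp900-series genes shared promoter letters and yet differed in how much transcript was counted in the control libraries. Each is the GRCm39 sequence, 5′ to 3′ on the strand of the gene, from 250 bases before to 30 bases after the start of the canonical transcript. Capitals mark matches, on either strand, to 4 strings of letters noticed in these sequences, namely CCAATCA (with a CCAAT box), the ETS-type string TTCCGG, then CCAGTCAG, and TAATTAAT. Zfp936 (chr7:42826729-42827008) and Zfp977 (chr7:42241980-42242259) are a related pair on chromosome 7, Zfp998 (chr13:66589197-66589476) is a gene of chromosome 13, Zfp990 (chr4:145237037-145237316) and Zfp984 (chr4:147894298-147894577) stand for the chromosome 4 cluster, and Zfp950 (chr19:61129227-61129506) and Zfp937 (chr2:150059743-150060022) had the largest falls.
Zfp936: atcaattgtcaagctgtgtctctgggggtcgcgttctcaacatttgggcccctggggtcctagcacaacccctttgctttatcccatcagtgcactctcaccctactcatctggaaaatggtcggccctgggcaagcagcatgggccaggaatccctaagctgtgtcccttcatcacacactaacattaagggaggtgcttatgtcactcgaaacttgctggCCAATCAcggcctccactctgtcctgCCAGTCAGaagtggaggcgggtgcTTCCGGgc
Zfp977: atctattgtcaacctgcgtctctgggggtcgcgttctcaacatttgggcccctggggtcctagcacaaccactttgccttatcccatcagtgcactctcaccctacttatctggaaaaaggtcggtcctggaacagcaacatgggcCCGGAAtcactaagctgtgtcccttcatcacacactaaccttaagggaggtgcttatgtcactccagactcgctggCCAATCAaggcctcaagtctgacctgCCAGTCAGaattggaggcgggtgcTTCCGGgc
Zfp998: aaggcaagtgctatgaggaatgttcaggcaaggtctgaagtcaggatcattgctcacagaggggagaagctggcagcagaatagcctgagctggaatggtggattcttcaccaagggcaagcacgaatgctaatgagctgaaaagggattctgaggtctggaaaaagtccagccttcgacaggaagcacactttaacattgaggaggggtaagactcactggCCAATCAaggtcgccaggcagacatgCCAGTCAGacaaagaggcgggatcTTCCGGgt
Zfp990: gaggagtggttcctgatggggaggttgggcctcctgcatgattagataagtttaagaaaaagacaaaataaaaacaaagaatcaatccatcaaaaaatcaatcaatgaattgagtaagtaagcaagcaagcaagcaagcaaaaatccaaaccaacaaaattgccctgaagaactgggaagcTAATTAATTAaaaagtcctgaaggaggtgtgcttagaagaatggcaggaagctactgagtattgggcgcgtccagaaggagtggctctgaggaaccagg
Zfp984: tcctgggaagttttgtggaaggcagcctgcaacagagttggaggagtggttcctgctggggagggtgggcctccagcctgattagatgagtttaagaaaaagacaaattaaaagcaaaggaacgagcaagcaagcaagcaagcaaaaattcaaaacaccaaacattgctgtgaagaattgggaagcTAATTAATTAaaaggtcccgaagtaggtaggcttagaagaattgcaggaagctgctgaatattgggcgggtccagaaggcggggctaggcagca
Zfp950: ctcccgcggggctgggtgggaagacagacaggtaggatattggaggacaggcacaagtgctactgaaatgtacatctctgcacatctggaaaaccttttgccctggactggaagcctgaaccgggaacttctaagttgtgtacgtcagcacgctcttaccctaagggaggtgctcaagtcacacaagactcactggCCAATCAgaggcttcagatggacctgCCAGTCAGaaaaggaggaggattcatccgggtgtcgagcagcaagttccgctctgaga
Zfp937: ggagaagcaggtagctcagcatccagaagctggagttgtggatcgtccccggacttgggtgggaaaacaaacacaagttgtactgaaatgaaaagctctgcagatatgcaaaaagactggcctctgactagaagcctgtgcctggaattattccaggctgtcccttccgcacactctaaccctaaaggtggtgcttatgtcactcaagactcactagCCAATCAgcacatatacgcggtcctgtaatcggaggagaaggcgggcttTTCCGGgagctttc

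The string CCAATCA, which contains the CCAAT box known to be bound by NF-Y, stood in 25 of the 60 promoters (41.7%), against 7.68% of the 24438 promoters of the same length found for listed genes. TTCCGG, which holds the core recognised by ETS factors, stood in 18 (30%) against 16.1%. CCAGTCAG stood in 11 (18.3%) against 1.49%. TAATTAAT stood in 8 (13.3%) against 0.753%, and all 8 were on chromosome 4, where CCAGTCAG stood in none of the 16. Among the 310 promoters of other numbered Zfp genes, TTCCGG stood in 31.9%, a share slightly above that of the Zfp900 series, CCAATCA in 15.8%, and CCAGTCAG and TAATTAAT in 1.29% each. The strings were noticed in promoters of these same genes, so a high share here follows from the choice and is not evidence of enrichment. Promoters that share ancestry are not independent, and a match is a description of letters rather than a site. None of these strings fully separated the genes that were silent in the control libraries from the others. Of the 25 genes with CCAATCA, 5 had at most 3 reads in each control library, and of the 8 with TAATTAAT, 4 did. TAATTAAT thus stood in 26.7% of the 15 such genes and in 8.89% of the other 45. For CCAATCA the shares were 33.3% and 44.4%. All 8 genes with TAATTAAT lie on chromosome 4, where 8 of all 16 genes were silent in this way. Within that cluster the string thus stood in 4 of the 8 silent genes and did not set them apart. CpG dinucleotides were few in the 60 promoters, with a median of 5.5 per window. It was 10 in all promoters and 11 in those of the other numbered Zfp genes. Restricted to the 54 whose canonical transcript begins before its coding part, the median was 6.

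Values are normalized counts, for which the authors had scaled the reads of each library by 1 factor. Between 35387438 and 49799321 reads were recovered per library, and the 60 genes together took 16342 and 13143 reads under control and 16962 and 22603 under tamoxifen, or between 0.0320% and 0.0479% of all reads. A count of 0 allows for up to 3 reads, which is called the floor and equals 2.16 to 4.11 normalized counts depending on the library. Intervals and floors cover counting error only. Mgp, the targeted gene, had 1094 and 1352 normalized counts in control and 945 and 909 in tamoxifen libraries. Both tamoxifen values were thus below both control values, with a log2 fold change of -0.39 (standard error 0.18, limma adjusted p = 0.0986). It was below 0 in 12 other settings, at -0.65 with quantile normalization, and 0.079 with libraries rescaled to equal totals. Lower Mgp transcript was not called in the tamoxifen libraries. The study reported a fall of Mgp in such cells by real-time PCR after tamoxifen. The 10 endothelial markers were called lower without exception, and their summed level went from 1149720 and 1168680 to 202631 and 103035. All 12 pluripotency markers were called higher, with sums of 248 and 352 in control and 63442 and 50782 in tamoxifen libraries. Of these Dppa3 alone was at 0 in both control libraries. All 10 cell cycle markers (3357 and 3911 against 105192 and 99360) and all 8 neutrophil markers (304 and 247 against 111655 and 83264) were called higher as well. So were 6 of 6 astrocyte markers (27117 and 31486 against 134790 and 285980), 4 of 6 neuron markers (922 and 1169 against 5447 and 7755) and 3 of 6 microglia markers (1282 and 2452 against 3160 and 3061). None of 6 mural markers was called (22680.0 and 40313 against 26675 and 54300). The part of these markers in the results below was not tested. In bulk RNA, fewer cells of a type and less RNA per cell cannot be told apart.

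Most Zfp900-series genes were counted in all 4 libraries, and 15 had next to no transcript in the control cells. At most 3 reads were counted in each control library for those 15. In 14 of them both tamoxifen libraries were above 3 reads, which makes 14 of the 60 against 10.9% of all listed genes with that pattern. No Zfp900-series gene showed the opposite, with both tamoxifen libraries at the floor and both control libraries above it, a pattern that only 158 of all 24873 listed genes had. Among the other 312 numbered Zfp genes 9 showed the first pattern and none the second, and among the 122 of these with a KRAB pattern 4 did. Both tamoxifen libraries were above both control libraries in 26 of the 60 genes (44.0% of all listed genes) and below both in 24 (34.6% of all listed genes). The groups overlapped in 10. All 60 genes are shown by library in the plot of normalized counts along the chromosomes.

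**Figure D1:**
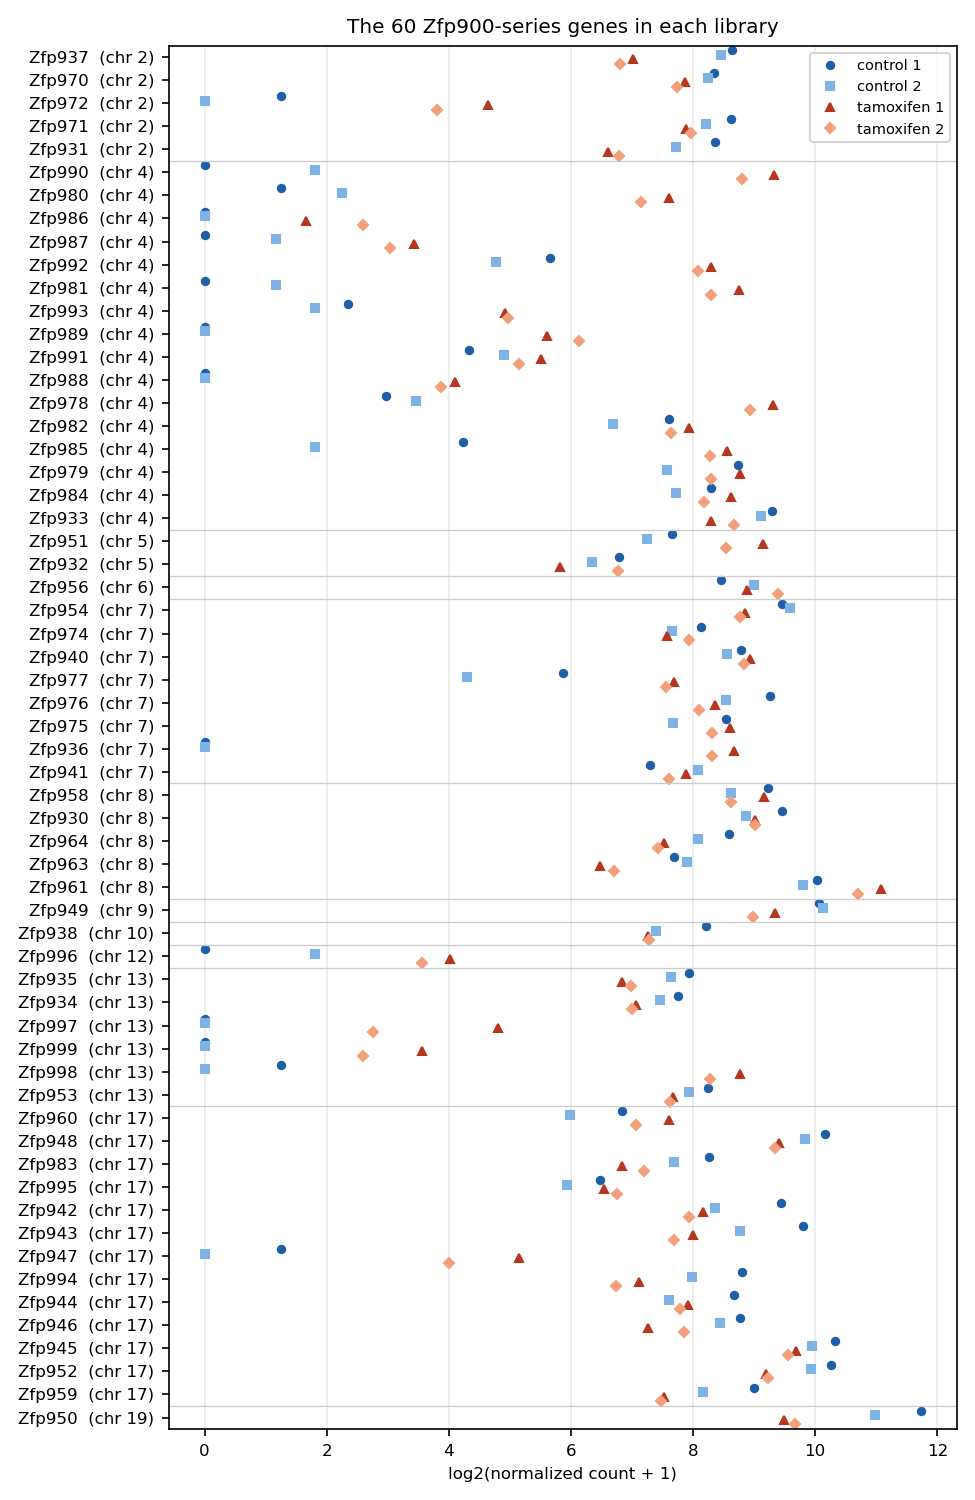
Normalized count of each of the 60 Zfp900-series genes, as log2(normalized count + 1) on the horizontal axis, in control library 1 and 2 (blue circles and squares) and tamoxifen library 1 and 2 (red triangles and orange diamonds). Genes are in chromosomal order, with lines between chromosomes. The 15 genes with both control symbols at or near 0 lie mainly on chromosomes 4 and 13, and every one of them has its tamoxifen symbols to the right.

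Tamoxifen was compared with control to ask which genes differed after the injections meant to delete Mgp in endothelium. Of the 60 genes, 53 had a mean of at least 10 normalized counts and were tested, and a call required both an adjusted p below 0.05 and a log2 fold change beyond 1 in either direction. Of the 53, 13 were called higher, where 28.6% of all 20485 tested genes were, and 8 were called lower, where 16.0% of all tested genes were. Their median log2 fold change was -0.15, with 0.05 over all tested genes. The share called higher was therefore close to that of all genes, and the direction of the median was not stable, since it was 0.33 with libraries rescaled to equal totals. Of the 53 tested genes, 9 passed the filter through the tamoxifen libraries, with a control mean under 10, and had to differ. Without a filter on low values, 20 of all 60 were called higher (27.5% of all listed genes) and 8 lower (12.7%), with a median of 0.13. That median was 0.13 as well with the genes that had no control read set at their lower bound. Among 305 other numbered Zfp genes tested, 37 were called higher and 43 lower, and their median was -0.32. The 37 include Zfp42, a pluripotency marker. An exact two-sided permutation test of 2 against 2 libraries cannot give a p under 0.333, so each adjusted p leans on the variance that limma estimates over all genes.

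**Figure D2:**
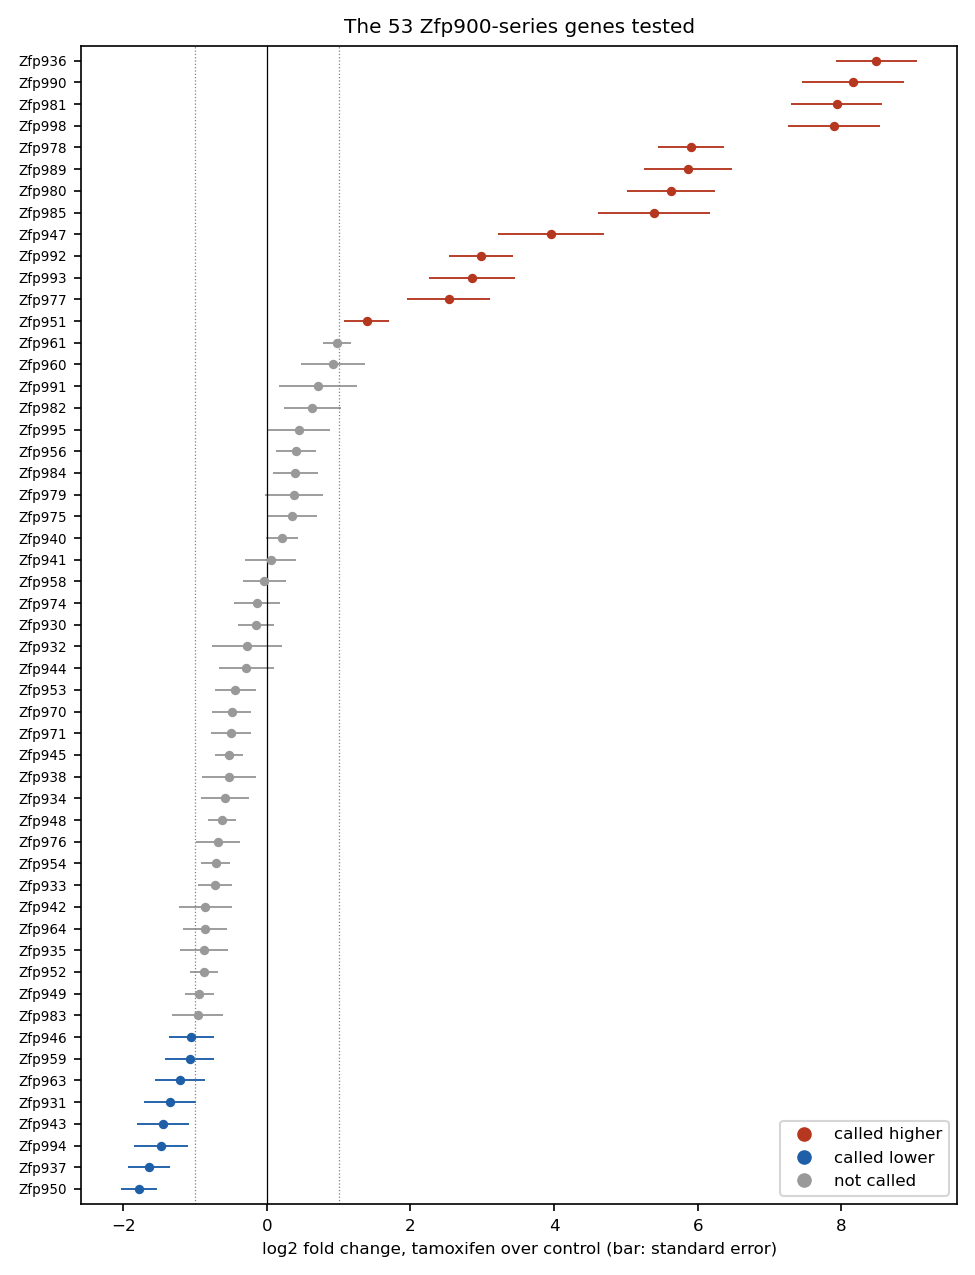
Log2 fold change of tamoxifen over control for each of the 53 Zfp900-series genes tested, with its standard error as a bar. Red marks the 13 genes called higher, blue the 8 called lower and grey the 32 not called, and dotted lines mark a log2 fold change of 1 in either direction. The falls end at -1.78. For the genes without a control read, Zfp936 and Zfp989, the plotted value depends on the pseudocount (6.18 to 9.49 for Zfp936 at pseudocounts of 5 and 0.5).

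Zfp936, a KRAB gene with 11 fingers on chromosome 7, had 0 reads in both control libraries and 406 and 316 normalized counts in the tamoxifen libraries. It was at least 91.8-fold higher against the floor of 3 reads per library (adjusted p = 2.88e-05). Zfp977, with 57.5 and 18.8 normalized counts in control and 206 and 187 in tamoxifen libraries, lies on the same chromosome, and its protein is 77.0% identical to that of Zfp936. Its log2 fold change was 2.54 (standard error 0.58, adjusted p = 0.00666). The promoters of the pair printed above are 91.8% identical, and both hold CCAATCA, CCAGTCAG and TTCCGG near the transcript start. Both genes were thus called higher, but control transcript was counted for Zfp977 and none for Zfp936.

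Another related pair, on chromosome 17, also differed in the amount of control transcript. Zfp947 and Zfp995 encode proteins of 90.4% identity, and their promoters are 87.1% identical. Zfp995 had 87.7 and 60.1 normalized counts in control and 92.1 and 106 in tamoxifen libraries, and it was not called (log2 fold change 0.44, standard error 0.43). Zfp947 had 1 read in the control libraries together and 34.7 and 15.1 normalized counts in the tamoxifen libraries. The ratio of its reads, corrected for the library factors, was 35.0 with an exact counting interval from 6.02 to 1409 (adjusted p = 0.00261). Zfp998, a KRAB gene with 14 fingers on chromosome 13, also had 1 control read, and 434 and 308 normalized counts in the tamoxifen libraries. Its ratio was 548 with an interval from 98.1 to 21665 (adjusted p = 6.3e-05). Its promoter holds the same 3 strings as those of Zfp936 and Zfp977. The promoters of Zfp972, with 1 control read, and Zfp961, with 1041 and 890 normalized counts in the control libraries, hold them too. Pairs with more alike windows did not differ in this way in the control libraries. Zfp970 and Zfp971, with windows 98.6% identical, had 322 and 302, and 393 and 294 normalized counts there. Their canonical transcripts begin at the coding part, so these windows may not be promoters. Zfp990 and Zfp987, with promoters 92.5% identical, both had at most 3 reads in each control library. In the tamoxifen libraries they differed, with 639 and 444 normalized counts for Zfp990 and 9.75 and 7.19 for Zfp987. Of the windows along the exons of Zfp987, 77.4% occur elsewhere in the genome.

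The chromosome 4 cluster held 8 of the 13 genes called higher (28.6% of all tested genes were) and none of those called lower by limma, edgeR or DESeq2 (1 was lower at an unadjusted p under 0.05). Of its 16 genes 13 were tested, but 6 of these passed the filter only through the tamoxifen libraries and had to differ. They are 6 of the 8 called, and the others called are Zfp985 and Zfp992. Without a filter on low values, 11 of all 16 were called higher, where 27.5% of all listed genes were, with a median log2 fold change of 2.92. Of the 44 on other chromosomes, 9 were then called higher and 8 lower, with a median of -0.46. Zfp990 lies at the proximal end of the cluster, and had 0 and 2.50 normalized counts in control and 639 and 444 in tamoxifen libraries. Its read ratio was 399 with an interval from 110 to 3300 (adjusted p = 8.12e-05). Zfp981 had 0 and 1.25 normalized counts in control and 429 and 311 in tamoxifen libraries, a ratio of 548 with an interval from 98.1 to 21665 (adjusted p = 5.83e-05). In both genes the control libraries were at the floor and both tamoxifen libraries were far above it. Zfp978, for which the canonical transcript encodes no finger, had 6.85 and 10.01 normalized counts in control and 633 and 487 in tamoxifen libraries, with a log2 fold change of 5.90 (standard error 0.46, adjusted p = 5.24e-05). Zfp985 had 17.8 and 2.50 normalized counts in control and 374 and 311 in tamoxifen libraries, and its log2 fold change was 5.40 (standard error 0.78, adjusted p = 0.000718). Zfp980 had 4 control reads in all and 194 and 140 normalized counts in the tamoxifen libraries, a ratio of 61.8 with an interval from 23.9 to 228 (adjusted p = 0.00019), although 66.3% of the windows along its exons occur elsewhere in the genome.

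Some genes of the cluster are near copies of each other, and their counts are uncertain for that reason. Of the 100-base windows along the exons of Zfp989, 100% occur elsewhere in the genome as well, and the share is over 50% in 10 of the 60 genes, 7 of them on chromosome 4. How reads with several matches were assigned is not given in the sources used here. Zfp989 had no control read and 47.7 and 69.0 normalized counts in the tamoxifen libraries, at least 14.8-fold higher (adjusted p = 0.000158). Zfp992 had 49.3 and 26.3 normalized counts in control and 313 and 271 in tamoxifen libraries, with a log2 fold change of 2.98 (standard error 0.45, adjusted p = 0.000852). Zfp991, whose protein is 99.0% identical to that of Zfp992, had 19.2 and 28.8 in control and 44.4 and 34.5 in tamoxifen libraries and was not called (log2 fold change 0.71, standard error 0.55). Since 56.1% of the windows of Zfp992 and 85.3% of those of Zfp991 occur elsewhere, reads may have been divided between the pair, and their values are uncertain. Zfp993, a fragment in the annotation, had 5 control reads and 29.3 and 30.2 normalized counts in the tamoxifen libraries, a ratio of 9.12 with an interval from 3.73 to 28.97 (adjusted p = 0.00458), and 55.97% of its windows occur elsewhere.

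Several genes in the distal part of the cluster were counted in both groups, whereas Zfp985, between Zfp982 and Zfp979, was called higher with few control reads, as given above. Zfp534, a gene of the same stretch, had 0 and 0 normalized counts in control and 113 and 55.4 in tamoxifen libraries. Zfp984, which is 78.5% identical to Zfp990 in protein and carries the same TAATTAAT string in its promoter, had 311 and 210 normalized counts in control and 392 and 290 in tamoxifen libraries. It was not called (log2 fold change 0.40, standard error 0.31). Zfp982, a gene linked to the embryonic stem cell state, had 193 and 103 in control and 243 and 198 in tamoxifen libraries and was not called either (log2 fold change 0.63, standard error 0.40). Zfp979 had 426 and 190 against 437 and 313, with overlapping groups. Zfp933, at the distal end, had 627 and 551 in control and 311 and 407 in tamoxifen libraries, a log2 fold change of -0.72 (standard error 0.24, adjusted p = 0.0325) that lies inside the fold limit. The stretch of chromosome 4 between its outer Zfp900-series genes holds 33 other listed genes. Of these 20 were tested, of which 12 passed the filter only through the tamoxifen libraries and had to differ. Limma called 11 higher (28.6% of all tested genes) and none lower, as did edgeR and DESeq2 for lower calls, and none was lower at an unadjusted p under 0.05. Without a filter 16 of all 33 were called higher (27.5% of all listed genes) and none lower, with a median log2 fold change of 1.68. They include Zfp600, with 0 and 3.75 normalized counts in control and 315 and 285 in tamoxifen libraries, and Rex2, with 0 and 1.25 against 130.1 and 85.5, so genes of the cluster outside this numbering showed such values too.

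**Figure D3:**
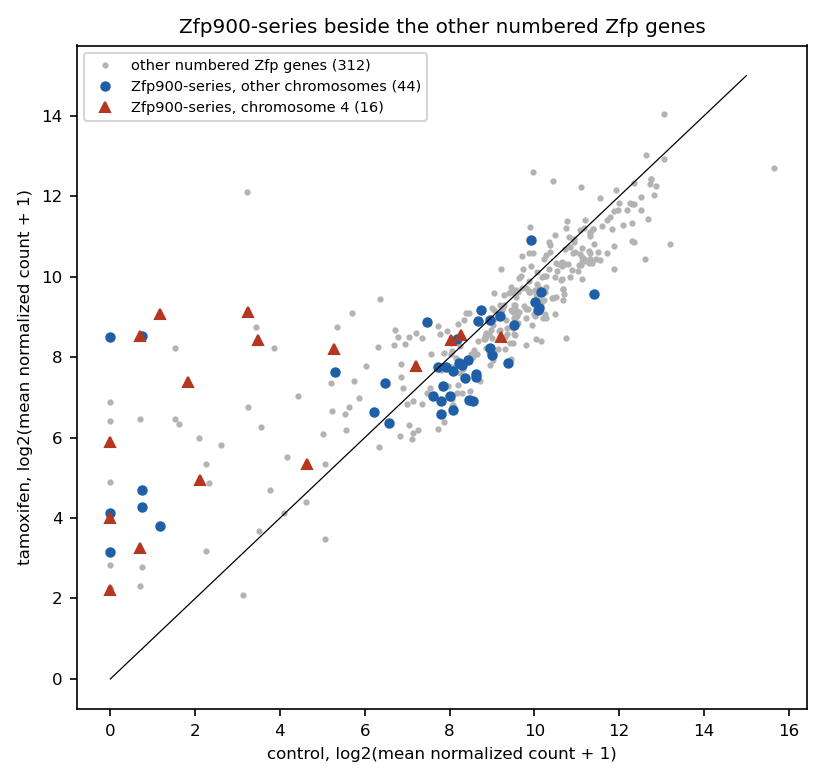
Mean of the 2 tamoxifen libraries against the mean of the 2 control libraries, both as log2(mean normalized count + 1), for the 16 Zfp900-series genes of chromosome 4 (red triangles), the 44 on other chromosomes (blue circles) and 312 other numbered Zfp genes (grey), with a line of equality. Most red triangles lie above the line, and most blue circles lie near or under it.

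The 7 genes outside the filter were all under 30 normalized counts in every library, and all 7 had at most 3 reads in each control library. Zfp988 had no control read and 16.3 and 13.7 normalized counts in the tamoxifen libraries, at least 3.80-fold higher, and 53.4% of its windows occur elsewhere. Zfp997, with no control read and 27.1 and 5.75, was at least 4.18-fold higher, although its tamoxifen libraries differed widely and 93.8% of its windows occur elsewhere. Zfp999, with no control read and 10.8 and 5.03, was at least 2.02-fold higher. Zfp972 had 1 control read and 23.8 and 12.9 normalized counts in the tamoxifen libraries, a ratio of 26.4 with an interval from 4.48 to 1070, and 63.2% of its windows occur elsewhere. Zfp987 also had 1 control read, with 9.75 and 7.19 in the tamoxifen libraries, a ratio of 12.6 (interval 1.996 to 522), and 77.4% of its windows occur elsewhere. The pseudogene Zfp996 had 2 control reads and 15.2 and 10.8, a ratio of 9.58 (interval 2.42 to 82.9). Zfp986 had no control read and 2.17 and 5.03, too few for a fold. In the fit without a filter all 7 were called higher, where 27.5% of all listed genes were. With control at the floor these fitted values depend on the pseudocount. Zfp986 was called there on 2 and 7 tamoxifen reads.

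The number of fingers overlapped between genes silent in the control libraries and the others. Of the 54 with at least 200 residues, the 10 with at most 3 reads in each control library had a median of 13.5 fingers, ranging from 7 to 19, and all 10 held the KRAB pattern. The other 44 had a median of 11, ranging from 3 to 21, and 42 held the pattern. Over 50% of exonic windows occurred elsewhere in 5 of the 10 and in 3 of the 44. Among 1431 pairs of proteins the median identity was 37.6%, and 21 pairs reached 75%.

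The 8 genes called lower were all expressed in both groups, and none was lost. Zfp950, a KRAB gene with 17 fingers on chromosome 19, had 3407 and 2021 normalized counts in control and 721 and 811 in the tamoxifen libraries. Its log2 fold change was -1.78 (standard error 0.25, adjusted p = 0.000633), and all tamoxifen values were below all control values. Zfp937, on chromosome 2, had 396 and 352 in control and 128 and 111 in tamoxifen libraries, with a log2 fold change of -1.64 (standard error 0.30, adjusted p = 0.00221). The promoters of both, printed above, hold CCAATCA. On chromosome 17, Zfp943 had 892 and 433 against 255 and 205 normalized counts (log2 fold change -1.44, adjusted p = 0.0103) and Zfp994 had 447 and 253 against 138 and 106 (log2 fold change -1.47, adjusted p = 0.011). Zfp946, with 434 and 348 against 153 and 229, and Zfp959, with 508 and 284 against 183 and 178, complete the 4 of that chromosome, at log2 fold changes of -1.05 and -1.07. Zfp931 (326 and 210 against 96.5 and 109) and Zfp963 (205 and 238 against 87.8 and 104) had log2 fold changes of -1.34 and -1.20. In none of the 8 did the groups overlap, which calls made on the same values favour. Of all listed genes, 34.6% had both tamoxifen libraries below both control libraries.

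These falls depended on how libraries were scaled and on single libraries more than the rises did. Rescaling the libraries to equal totals moved the median log2 fold change of all genes to 0.54 and left 16 Zfp900-series genes called higher and 2, Zfp937 and Zfp950, called lower. Quantile normalization moved the median of all genes to -0.23 and gave 10 higher and 27 lower. Relative to the median of all genes, the Zfp900-series median was -0.20 as reported, -0.21 with equal totals and -0.82 with quantile normalization. It was -0.43 with a filter at 100 and -0.038 without a filter, -0.48 without control library 2, and turned to 0.055 without control library 1. Control library 1 exceeded control library 2 in 41 of the 53 tested genes, with a median log2 ratio of 0.45 where it was -0.05 over all tested genes. On chromosome 17 it did so in 13 of 13. Without control library 1, 3 genes were called lower and 18 higher, without control library 2, 12 lower and 15 higher, without tamoxifen library 1, 2 lower and 8 higher, and without tamoxifen library 2, none lower (7 at an unadjusted p under 0.05) and 10 higher. In every setting in which they were tested, the 21 called genes kept their direction. Zfp936, Zfp990, Zfp981, Zfp998, Zfp978, Zfp989, Zfp980 and Zfp993 kept their call in every setting in which they were tested. Zfp985, Zfp992, Zfp977 and Zfp951 lost it without either tamoxifen library, with adjusted p-values of up to 0.0786, 0.066, 0.147 and 0.128. Zfp977 and Zfp951 lost it with quantile normalization as well (adjusted p = 0.0897 and 0.435). Zfp947 lost it with quantile normalization (adjusted p = 0.0556).

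**Figure D4:**
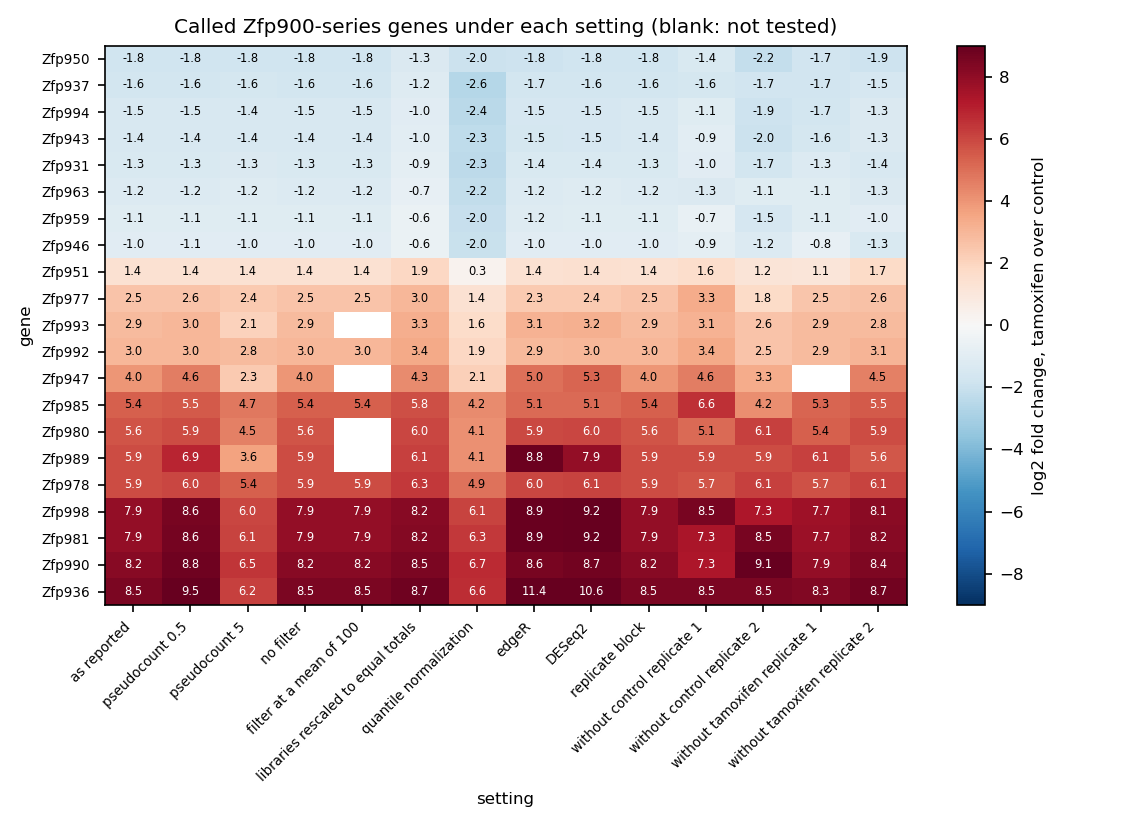
Log2 fold change of tamoxifen over control for the 21 Zfp900-series genes called (rows), as reported and under each of 13 other settings (columns), printed in the cells and coloured from blue (lower) to red (higher). Blank cells were not tested. The sign is the same along each row, whereas falls such as that of Zfp959 move from -0.60 with equal totals to -2.05 with quantile normalization. Fitted values of Zfp936 and Zfp989, which had no control read, are not bounds.

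The remaining 32 tested genes were not called, with log2 fold changes from -0.96 to 0.98. Of these 7 had an adjusted p under 0.05 in the lower direction and 1, Zfp961, in the higher direction. Zfp961 on chromosome 8 had 1041 and 890 normalized counts in control and 2168 and 1659 in tamoxifen libraries, a log2 fold change of 0.98 (standard error 0.19, adjusted p = 0.00341) just under the fold limit, and DESeq2 placed it at 1.01. The smallest differences were those of Zfp958 (601 and 390 against 570.1 and 393, log2 fold change -0.03), Zfp941 (156 and 269 against 235 and 193, 0.05), Zfp974 (278 and 200 against 190 and 244, -0.13), Zfp930 (704 and 466 against 518 and 513, -0.15) and Zfp940 (441 and 377 against 490 and 457, 0.21). Each of these 5 changed sign under at least 1 other setting. Zfp932, which is known to repress endogenous retroviruses of the ERVK class, had 110 and 80.1 in control and 55.3 and 108 in tamoxifen libraries, with a log2 fold change of -0.28 (standard error 0.49). Zfp951, the last of the genes called higher, had 200 and 151 against 567 and 370 normalized counts, with a log2 fold change of 1.39 (standard error 0.32, adjusted p = 0.00688), but of 0.33 with quantile normalization, where the call was lost.

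Levels of different genes were compared per kilobase of canonical transcript. In control libraries the highest were Zfp950 at 1034, Zfp961 at 351, Zfp952 at 320, Zfp948 at 299.98 and Zfp931 at 279 normalized counts per kilobase. In tamoxifen libraries they were Zfp961 at 697, Zfp950 at 292, Zfp978 at 256.3, Zfp956 at 207 and Zfp958 at 201. Zfp978 thus stood among the 5 highest in tamoxifen libraries, from 3.86 per kilobase in control libraries, although 37.7% of its exonic windows occur elsewhere. The ranks depend on the annotated length, which was only 962 bases for Zfp931, at 326 and 210 normalized counts in control. Zfp952 (1222 and 970 against 584 and 600 normalized counts, log2 fold change -0.88) and Zfp948 (1142 and 915 against 681 and 645, -0.63) were lower in both tamoxifen libraries but inside the fold limit, and Zfp956 had 352 and 508 against 474 and 669 with overlapping groups. Zfp934 (215 and 175 against 133 and 127) and Zfp935 (244 and 198 against 114 and 126) were not called, with log2 fold changes of -0.58 and -0.87.

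A list of 20 genes, called KRAB corepressor genes here, holds Trim28 and its partners with other factors of repressive chromatin and DNA methylation. Limma called 5 of the 20 higher and none lower, with a median log2 fold change of 0.24. Of Trim28, Setdb1 and the HP1 genes, Trim28 alone was among these 5. Of all tested genes, 28.6% were called higher and 16.0% lower. The share called higher was near that of all genes. edgeR and DESeq2 called none lower either, and 2 were lower at an unadjusted p under 0.05. Trim28, the corepressor that binds the KRAB domain, had 7918 and 8150 normalized counts in control and 23949 and 20897 in tamoxifen libraries, with a log2 fold change of 1.48 (standard error 0.18, adjusted p = 0.0003). Uhrf1, which guides maintenance methylation of DNA, had 351 and 338 against 9433 and 8016 (log2 fold change 4.65, standard error 0.16, adjusted p = 3.42e-06), and Dnmt1, the maintenance methyltransferase, 5313 and 5819 against 14643 and 12720 (log2 fold change 1.30, adjusted p = 0.00043). The H3K9 methyltransferase genes Suv39h2 (121 and 81.4 against 540 and 474) and Suv39h1 (637 and 794 against 1561 and 1392) had log2 fold changes of 2.34 and 1.05, the latter 0.82 with quantile normalization. Uhrf1 and Dnmt1 are also known to be expressed with the cell cycle, whose 10 markers were called higher, and the part of cycling cells in these values was not tested. Setdb1, the methyltransferase that TRIM28 recruits, was not called, with 3904 and 3672 against 4498 and 4389 normalized counts (log2 fold change 0.23, standard error 0.15). Cbx5, encoding HP1α, had a log2 fold change of 0.81 and an adjusted p of 0.00375, and Cbx1 and Cbx3 had 0.07 and 0.40. The genes of the HUSH complex, Tasor, Mphosph8 and Pphln1, were not called, at log2 fold changes of -0.56, 0.06 and -0.08. None of Atf7ip, Chd3, Chd4, Morc2a, Atrx, Daxx, Smarcad1 or Morc3 was called, with log2 fold changes between -0.58 and 0.54.

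**Figure D5:**
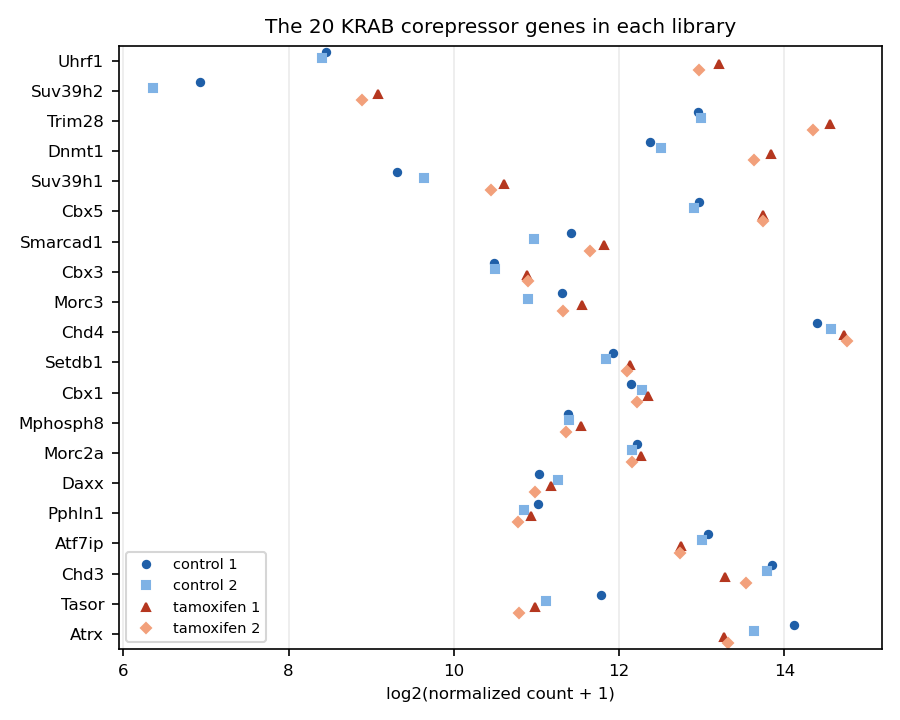
Normalized counts of 20 KRAB corepressor genes, as log2(normalized count + 1) on the horizontal axis, in each control (blue) and tamoxifen (red and orange) library, ordered by log2 fold change. For Uhrf1, Suv39h2, Trim28, Dnmt1 and Suv39h1 at the top the tamoxifen symbols are well to the right, and for most others they lie close to the control symbols.

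Of 8 KRAB zinc finger genes with known targets, 7 were listed. Zfp57, which protects methylation at imprinted genes, was called higher, with 1400 and 1391 normalized counts in control and 5624 and 5101 in tamoxifen libraries (log2 fold change 1.94, standard error 0.15, adjusted p = 4.98e-05). Zfp568, which represses a placental transcript of Igf2, was called higher too, with 2409 and 1998 against 5460 and 4090 (log2 fold change 1.11, adjusted p = 0.00179). Rsl1, a regulator of sex-limited liver genes, was called lower, with 629 and 468 against 212 and 192 (log2 fold change -1.42, adjusted p = 0.00268, and -0.95 with equal totals). Zfp809, which silences proviruses of the murine leukaemia virus type, had 1278 and 1182 against 1591 and 1405 and was not called. Zfp445, Zfp689 and Zfp30 were not called, with log2 fold changes of -0.33, -0.53 and -0.27.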

How the data were processed

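RNA of CD31+CD45- cerebral cells was sequenced with a stranded mRNA kit, in 2 control and 2 tamoxifen libraries. Per the submitters' notes, STAR 2.7.10a, the GRCm39 build and DESeq2 1.36.0 were used for alignment and normalization. The annotation release, strand setting and treatment of reads with several matches are not given in the sources used here. Each deposited value is a signal, the reads of a gene scaled by a factor of its library, and 100% of values were whole reads within 0.01 read. Columns A and C with a number were read as tamoxifen (AVM) and control, which the column names do not spell out.

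The test was limma 3.58.1 in R 4.3.3 (eBayes with trend) on values transformed as log2(normalized count + 1). Genes needed a mean of 10 or more, with Benjamini-Hochberg adjustment over all 20485 tested genes. Fold changes on this scale understate those of low genes. Calls required an adjusted p below 0.05 and a log2 fold change beyond 1 in either direction, after the study's cut-offs. As alternatives, the pseudocount was 0.5 or 5, the filter was dropped or raised to 100, libraries had equal totals or quantiles, recovered reads were tested with edgeR 4.0.16 or DESeq2 1.42.0, a replicate block was added, and each library was left out. On simulated data with 200 changed genes, the test recovered 182 of 192 tested. Those changes were large, with 1 dispersion for all genes, and were far fewer than the 9151 genes called here. That recovery rate therefore does not carry over to these data.

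Locations, lengths, fingers and promoters came from GENCODE M39 canonical transcripts, in which all 60 symbols were found. C2H2 fingers and KRAB domains were counted by amino acid patterns, and copies by exact matches of 100-base exonic windows in the genome. The KRAB pattern misses some domains, since Zfp445, listed above as a KRAB gene, did not match it. Counts of genes with the pattern are therefore not counts of domains. Identity is over the longer of 2 globally aligned sequences. Read ratios have exact binomial intervals at 95%. Genes were named by rule: the 12 largest rises, 8 largest falls, 5 highest levels per kilobase in each group, 5 smallest changes, all at the floor or outside the filter, and up to 6 whose call moved. Zfp951, Zfp970, Zfp971, Zfp979, Zfp982, Zfp984, Zfp991, Zfp995, Zfp534, Zfp600, Rex2, the printed promoters and the letter strings were chosen after values were seen. The genes and lists were chosen with earlier results of these data known. The labels do not say that replicates came from separate experiments, so p-values measure the spread between these libraries.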

Additional observations from a re-analysis of the deposited data

How the results depend on the processing

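Of 436 values of 34 named Zfp900-series genes under the alternatives, 371 kept direction and side of the thresholds, 38 lost the call, 12 gained it and 15 changed sign. The number called higher was 20 without a filter, and from 8 to 18 with 1 library left out. The number called lower was 2 with equal totals and 27 with quantile normalization, and from 0 to 12 with 1 library left out. The lower calls were 3 without control library 1 and 12 without control library 2. On all 4 libraries limma, edgeR and DESeq2 called 8 lower each, and neither edgeR nor DESeq2 was run with a library left out. The median log2 fold change was -0.46 with a filter at 100, 0.33 with equal totals and -1.05 with quantile normalization, and from -0.37 to 0.15 with 1 library left out. All genes called numbered 5934 with a filter at 100 and from 4979 to 10001 with 1 library left out. Other numbered Zfp genes were called higher in 22 with a filter at 100, 59 with equal totals, 21 with quantile normalization and from 17 to 40 with 1 library left out, and lower in 11 with equal totals, 113 with quantile normalization and from 22 to 50 with 1 library left out. KRAB corepressor genes called higher numbered from 3 to 5 with 1 library left out, and none was called lower in any setting. With equal totals the log2 fold change was 0.079 for Mgp, 0.32 for Zfp930, 0.19 for Zfp932, 0.43 for Zfp958 and 0.33 for Zfp974. With quantile normalization it was -0.60 for Zfp940, -1.09 for Zfp941 and -0.29 for Zfp956. With 1 library left out Zfp930 ranged from -0.45 to 0.15, Zfp932 from -0.75 to 0.20, Zfp958 from -0.35 to 0.28, Zfp974 from -0.37 to 0.10, and Zfp941 from -0.34 to 0.44. The cause of these changes was not tested beyond the smaller number of libraries or genes.

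Replicate numbers are shared between groups by name only, and deviations of same-numbered libraries from their group means had a correlation of 0.03 over 20485 genes. With the replicate block, 13 Zfp900-series genes were called higher and 8 lower, and 9525 of all genes were called. With a single library in a group, that library is assumed to vary like those of the other group. Depth limits the 15 genes at the floor. Counting intervals or lower bounds were given for 14 of them, Zfp986 had too few reads for either, and fitted fold changes of these genes depend on the pseudocount.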
